A study of Homo sapiens with 9 samples.

Results

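The BCL2 family comprises the proteins that decide whether the outer membrane of the mitochondrion stays intact or is opened, which is the committing step of intrinsic apoptosis. The 10 genes examined here were BCL2, BCL2L1 and MCL1, whose products hold cell death back, BAX and BAK1, whose products form the pores, and BCL2L11, BID, BAD, PMAIP1 and BBC3, whose BH3-only products sense stress and tip the balance. They were taken by name from 20163 annotated protein-coding genes. For each gene the H3K4me3 peaks within 1 kb of any annotated start were collected in each library, and the largest peak signal was taken as the value of that gene. The measured signal is the trimethylation of lysine 4 on histone H3, a mark of active promoters, mapped by CUT&RUN, in which a nuclease tethered by an antibody cuts out the marked chromatin for sequencing.

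The libraries came from HEL cells, an established human erythroleukemia line, that carried CRISPR guides. Of these, 3 libraries carried a guide without a target (NTC, the non-targeting control), and 2 libraries each came from a knockout of METTL3 (METTL3-KO), METTL14 (METTL14-KO) or WTAP (WTAP-KO). These 3 targets encode subunits of the complex that writes the m6A mark on messenger RNA, METTL3 being the catalytic subunit, METTL14 its RNA-binding partner and WTAP the adaptor. The comparison addresses how the promoter mark at these genes stood when each subunit was removed. The sources used here do not say whether the libraries of 1 group came from separate cultures, clones or pools, so p-values measure only the spread between libraries, which may be technical.

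In blood cells the family is known for its division of labour. Erythroid precursors rely on BCL-XL, the main product of BCL2L1, to survive their final maturation, while MCL1 protein is short-lived and is needed by early progenitors. BCL2 protein is the target of venetoclax, a drug used in acute myeloid leukemia. The BH3-only proteins bind the survival proteins in their groove, and NOXA (from PMAIP1) and PUMA (from BBC3) are made in response to DNA damage.

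The 9 peak lists differed before any gene was considered. A gene had a peak within 1 kb in 9441 to 9655 cases in the NTC libraries, 6750 and 6978 in METTL3-KO, 2662 and 4264 in METTL14-KO, and 2298 and 2606 in WTAP-KO. No total of fragments is given, so the depth is unknown. The signals of each list had a smallest unit, called the step. A fragment was taken as 2 steps, an assumption that was not tested. The lowest peak then corresponded to 12 to 14 fragments in the NTC libraries and 15 to 47 in the KO libraries. On that count a call needed more fragments in a KO library, and its part in the results was not tested. The lists hold no peak wider than 2000 bp, although each NTC library held 903 to 975 peaks of more than 1800 bp and each KO library 9 to 116. A missing peak is therefore described as listed at 0, which need not be a missing mark. Fewer cells with the mark and less mark per cell cannot be told apart in such libraries. Of 12 erythroid and megakaryocytic marker genes, 7 had a peak in all 3 NTC libraries (GATA1, TAL1, KLF1, EPOR, GYPC, GFI1B and LMO2), against 2 of 6 markers of other blood lineages and 1 of 6 markers outside blood (COL1A1), while the gamma-globin gene HBG1 had none. The promoters of the targets themselves were marked in NTC (METTL3 and METTL14 in 3 libraries, WTAP in 2), and since a CRISPR cut alters the coding sequence, the mark there does not check the knockout.

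Nearly all members were marked in NTC cells. BCL2, MCL1, BCL2L11, BAX, BAK1, BID, BAD and PMAIP1 had a peak in all 3 NTC libraries, BBC3 in 2 of 3, and BCL2L1 in none. The number of members with a peak fell from 9, 8 and 9 in the NTC libraries to 5 and 5 in METTL3-KO, 3 and 1 in METTL14-KO, and 1 and 1 in WTAP-KO. The share of all genes with a peak fell as well, from 47.9, 47.6 and 46.8% in the NTC libraries. It was 34.6 and 33.5% in METTL3-KO, 21.1 and 13.2% in METTL14-KO, and 11.4 and 12.9% in WTAP-KO. The single member with a peak in the WTAP-KO libraries was BCL2L1, which had none in NTC. Of the 8 members marked in all NTC libraries, 3 (37.5%) had no peak in any KO library, against 45.8% of all 8495 genes that had a peak in every NTC library.

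**Figure D1:**
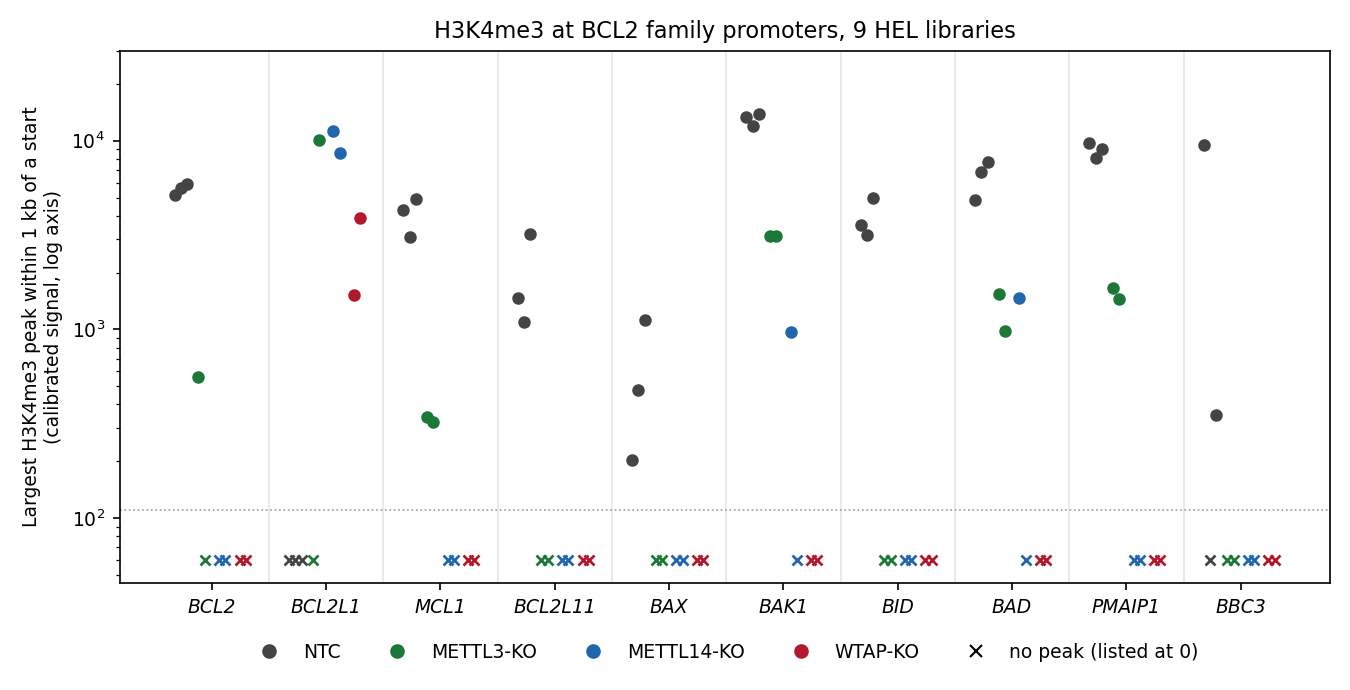
Largest H3K4me3 peak within 1 kb of a start (calibrated signal, log axis) for the 10 genes in each of the 9 libraries; each point is 1 library, coloured by group, and a cross below the dotted line is a library with no peak. For 8 genes every KO library lies below all 3 NTC libraries, while BCL2L1 has points in 5 KO libraries and crosses in all 3 NTC libraries.

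Signals were compared with limma on log2(signal + 30.1), the added value being the smallest signal of any gene, over 12037 genes with a peak in at least 2 libraries, with Benjamini-Hochberg adjustment over all of them. A fold change against libraries listed at 0 is set by that added value and is no measure of size, so such changes are given only with their direction and their test. When all KO groups were compared with NTC, 8 of 10 members were lower (BCL2, MCL1, BCL2L11, BAX, BAK1, BID, BAD and PMAIP1) and 1 was higher (BCL2L1). With libraries centred on the genes marked in all 9, 6 were lower, BAX (limma adjusted p = 0.0579) and BAD (0.0796) no longer passing, and 1 was higher. The background was of the same order, since 73.0% of all tested genes were lower and 14.3% higher. The median change, no measure of size where libraries are listed at 0, was -5.78 over the members and -5.30 over all genes tested. In the same way every KO library lay below every NTC library at 8 of 10 members and at 68.3% of all tested genes. A share of lower members near that of all genes is no result about the family, so what follows is the difference between its members.

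By group, 6 members were lower in METTL3-KO and none higher (all genes 60.9% lower and 14.0% higher). In METTL14-KO 8 were lower and 1 higher (all genes 68.8% and 8.38%), and in WTAP-KO 8 were lower and 1 higher (all genes 69.7% and 6.81%). The 3 comparisons share the NTC libraries. With libraries centred on the genes marked in all 9, the split over all genes went from 8281 lower and 1009 higher to 6506 and 2037 in METTL14-KO, and from 8386 and 820 to 6673 and 2052 in WTAP-KO. The median change over the members was -3.73 in METTL3-KO, -6.05 in METTL14-KO and -7.04 in WTAP-KO, beside -3.48, -5.57 and -5.97 over all genes tested. These medians too are set in part by the added value, so their order is no measure of size. A two-sided exact permutation test over the 9 libraries gave p = 0.0238 for each of the 8 lower members, the smallest value that the 84 splits allow, 0.0952 for BCL2L1 and 0.167 for BBC3, with 10 tests and no adjustment. Groups that do not overlap give that smallest value, so it adds nothing to the lack of overlap. KO libraries all lay below NTC at 68.3% of all tested genes.

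**Figure D2:**
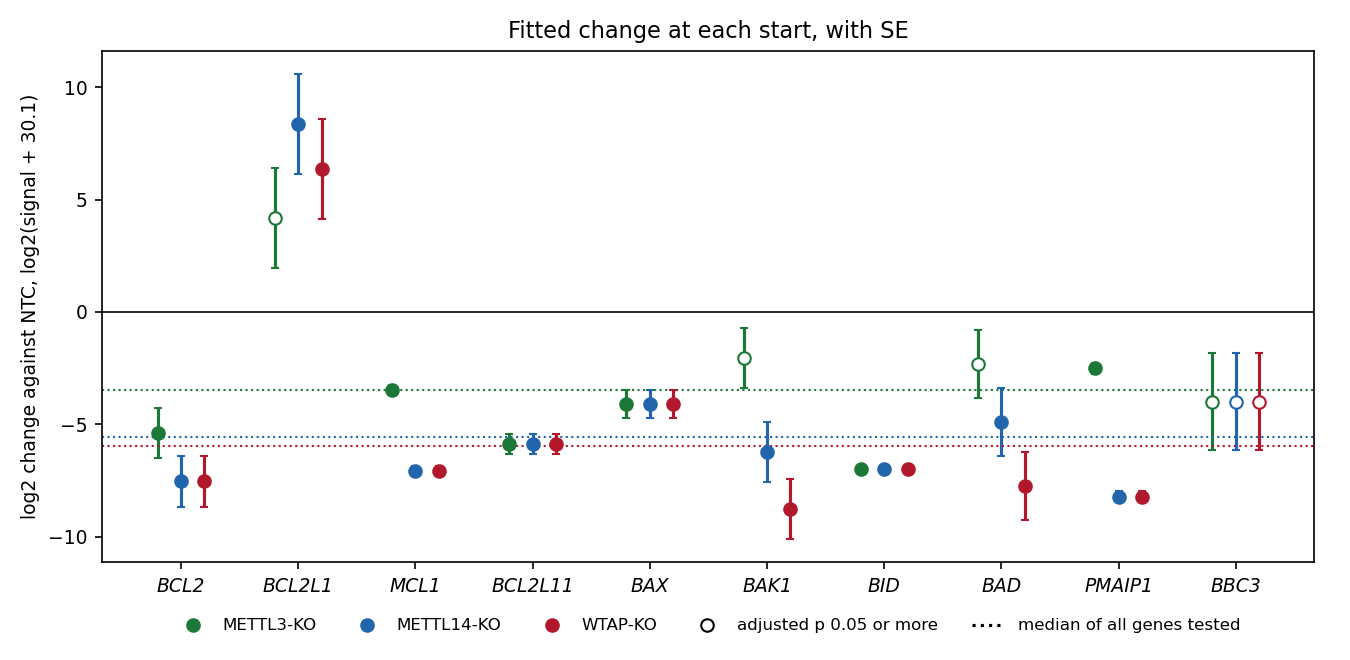
Fitted log2 change of each member against NTC, with its SE, on the log2(signal + 30.1) scale; filled points passed the adjusted p of 0.05, open points did not, and dotted lines give the median of all 12037 genes in the same comparison. BCL2L1 alone lies above 0, and the other members lie around the dotted lines.

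Among the survival genes, BCL2L1 went opposite to BCL2 and MCL1. At BCL2L1 (hg19 chr20:30252255-30311792, minus strand, canonical start at 30310671) the 3 NTC libraries and the first METTL3-KO library were listed at 0. The signal was 10088 in the second METTL3-KO library, 11276 and 8584 in METTL14-KO, and 1523 and 3914 in WTAP-KO. The groups therefore overlapped in METTL3-KO alone, through its first library. Within its own list the peak stood 89th of 6750 marked genes in the second METTL3-KO library. In the METTL14-KO libraries it stood 47th of 4264 and 45th of 2662. In the WTAP-KO libraries the rank was 629th of 2298 and 246th of 2606. The ranked WTAP-KO peak was a different one, 933 and 941 bp from the nearest annotated start. The rise passed the test for all KO groups (limma adjusted p = 0.0128), for METTL14-KO (0.0123) and for WTAP-KO (0.0368), and did not for METTL3-KO (0.128).

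The BCL2L1 rise depended on the window and on single libraries, and in WTAP-KO the call was lost under 12 of 23 alternatives. With a window of 5 kb the change for all KO groups was 1.81 ± 2.33 (SE; adjusted p = 0.486), since peaks of 2402 and 4229 in NTC replicates 2 and 3, 4848 and 4938 bp from the nearest start, then entered. Leaving out a KO library leaves 1 in its group, which is then assumed to vary like the other groups. In such fits METTL3-KO passed without its first library (adjusted p = 5.75e-05), without the first METTL14-KO library the METTL14-KO call was lost (0.0579), and the WTAP-KO call was lost without either WTAP-KO library (0.0856 and 0.151), without any 1 NTC library (0.081 to 0.0823) and without either METTL14-KO library (0.06 and 0.0598). It was also lost with the 5 kb window (0.592), with 10 times the added value (0.0675), with the outermost start alone (0.0863), with only peaks at or above the NTC median (0.398) and with the replicate number as a block (0.0864).

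The shape of the BCL2L1 peaks differed by group. In the second METTL3-KO library and both METTL14-KO libraries 1 peak of 1819, 1811 and 1741 bp covered the canonical start, from -1118, -1111 and -1048 bp to 700, 699 and 692 bp relative to it. These widths are close to the limit of the lists. In the WTAP-KO libraries the same interval held 3 short peaks with gaps at the start, the longest of 426 and 569 bp, and the largest peak lay at 1252 to 1908 bp after the start, where the start of the non-coding gene ABALON is annotated. A second peak at that place was present in all 5 libraries. Summed over the window, the signal was 16350 in the second METTL3-KO library, 19759 and 13314 in METTL14-KO, and 3037 and 7952 in WTAP-KO. The nearest NTC peaks lay 8299 to 16025 bp into the gene and 89356 to 89403 bp beyond its start, and in the first METTL3-KO library the nearest peaks lay 208016 and 156582 bp away.

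A stretch of BCL2L1 before the start is shown that lay inside a listed peak of all 5 of these KO libraries and of no NTC library. Whether an NTC peak wider than the lists hold covers it was not tested. The largest WTAP-KO peaks lie elsewhere, on the ABALON side, and over this stretch the WTAP-KO peaks were small (598 and 503). It lies at chr20:30311333-30311537 (hg19, minus strand, 205 bases, printed 5′ to 3′), 662 bp before the canonical start, in no annotated exon and within the introns of 6 of the 15 annotated BCL2L1 transcripts. Capitals mark its 23 CG dinucleotides, which in their unmethylated form are bound by the CXXC1 subunit of the SETD1 complexes that write H3K4me3.
BCL2L1: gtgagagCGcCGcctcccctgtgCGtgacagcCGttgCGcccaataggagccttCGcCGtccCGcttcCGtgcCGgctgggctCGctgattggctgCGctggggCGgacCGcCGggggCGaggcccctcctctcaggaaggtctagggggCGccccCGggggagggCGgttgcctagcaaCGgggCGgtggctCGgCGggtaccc

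The pattern of BCL2L1 was shared by many genes. Of 3105 genes with a peak in at least 4 KO libraries, 1169 (37.6%) had no peak in any NTC library, and 839 of those (71.8%) had none within 5 kb either. Their widest KO peak had a median width of 1301 bp, against 832.5 bp at the 1402 genes with peaks in at least 4 KO libraries and all NTC libraries, and it was over 1000 bp in 71.7% against 33.5%. At those 1402 genes the NTC peak was 2.75 times as wide as the KO peak in the median, with quartiles of 2.14 and 3.6. Of the 300 genes with peaks in exactly 5 KO libraries and none in NTC, the first METTL3-KO library was the one without a peak in 65. Whether an NTC peak wider than 2000 bp lies over BCL2L1 was not tested. The tested genes nearest to BCL2L1 in Euclidean distance of log2 signal over the 9 libraries were TMEM87A and GANC, which share 1 peak in each library (distance 1.2), and PUM3 (1.74), all 3 listed at 0 in the same 4 libraries.

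**Figure D3:**
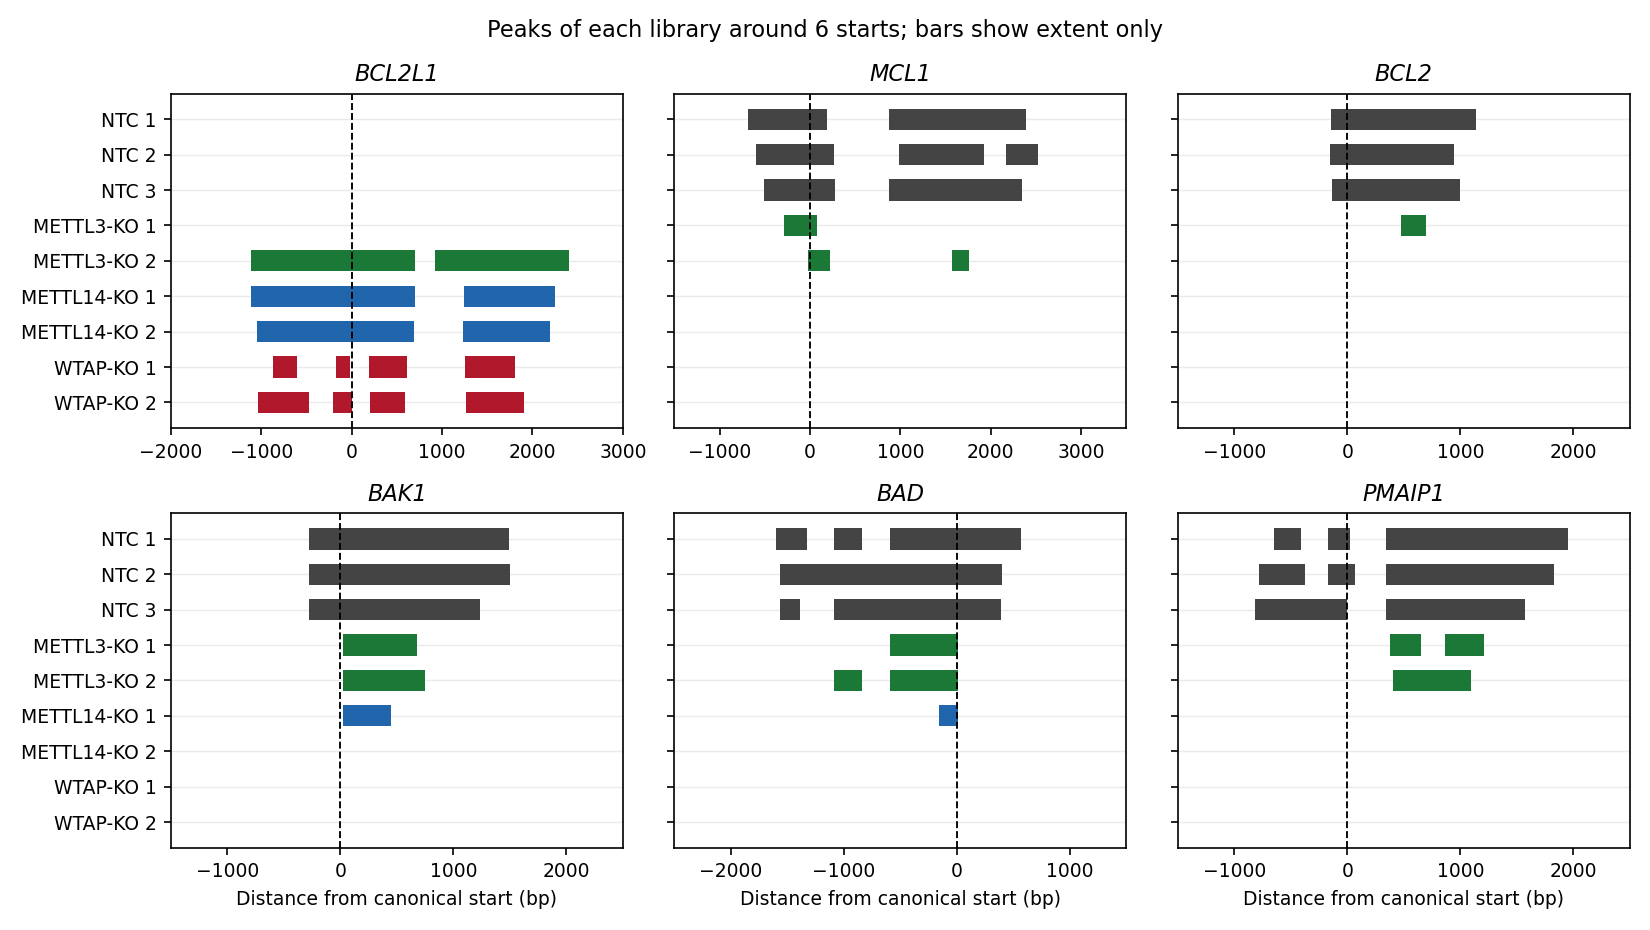
Extent of every peak around 6 starts, by library, as the distance from the canonical start (bp, positive in the direction of transcription, dashed line at the start); bar height carries no value. At BCL2L1 only KO libraries have peaks, and at the other 5 genes the largest peak of each KO library with one lies inside an NTC peak.

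BCL2 had 1 peak over its start in each NTC library, with signals of 5137, 5626 and 5927 (chr18:60985862-60987148 in the first library, covering exons 1 and 2). In the KO libraries it was listed at 0 in all but the first METTL3-KO library, which had 561, in a peak of 220 bp inside exon 1 and inside the NTC peaks. The NTC and KO values were thus far apart, with a spread of 399 (SD, n = 3) around an NTC mean of 5563. The fall passed the test in METTL3-KO (limma adjusted p = 0.00461), METTL14-KO (0.000825) and WTAP-KO (0.000783), and under every alternative run for these comparisons.

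MCL1 was weaker in NTC and kept a trace in METTL3-KO. Its largest signal was 4293, 3075 and 4925 in the NTC libraries, 344 and 325 in METTL3-KO, and 0 in all 4 METTL14-KO and WTAP-KO libraries. The largest NTC peak began 871 to 980 bp after the canonical start (chr1:150552086, minus strand), over exon 2, and a second, smaller NTC peak lay over the start itself. The METTL3-KO peaks lay over the start, so that the values above compare different peaks. At the start peak alone METTL3-KO had 334 on average (n = 2) against 2557 ± 455 (SD, n = 3) in NTC, which is 13.1%. MCL1 was lower in METTL3-KO (log2 change -3.48 ± 0.24, SE; limma adjusted p = 1.67e-05), and lower in METTL14-KO and WTAP-KO (4.16e-07 in both).

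The genes nearest to MCL1 in log2 signal over the 9 libraries were C7orf50 (distance 0.276), ERICH6 (0.428) and MRPL40 (0.447). All 3 had NTC signals between 2842 and 5493, METTL3-KO signals between 268 and 416, and no METTL14-KO or WTAP-KO peak.

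The effector genes BAX and BAK1 stood at opposite ends of the NTC range. BAX had 204, 475 and 1119 in the NTC libraries, the weakest of the members marked in all 3, in peaks of 336 to 403 bp that ended from 60 bp before to 11 bp after the canonical start. No KO library had a BAX peak within 5 kb. The gene was called lower in each group (limma adjusted p = 0.000941 in METTL3-KO, 0.00083 in METTL14-KO and 0.000788 in WTAP-KO). As every KO library was listed at 0, these tests are the same comparison, and the spread seen is that of the NTC libraries alone. When libraries were centred on the genes marked in all 9, which also moves values listed at 0, the BAX calls were lost in METTL14-KO (0.205) and WTAP-KO (0.596).

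BAK1 had the strongest NTC signal of the family, 13380, 12015 and 13778, and had 3107 and 3122 in METTL3-KO. In METTL14-KO the first library had 972 and the second none, and WTAP-KO had none in either. METTL3-KO thus held 23.9% of the NTC mean, the highest share of the 4 members with a peak in all NTC and both METTL3-KO libraries. Over the 3386 genes with a peak in all NTC and both METTL3-KO libraries the median was 16.2%, with quartiles of 9.93% and 25%. When each library was divided by its step the BAK1 share was 46.1%, a scale on which no median over all genes is given. The METTL3-KO values were below all NTC values, and the fall was not called in the model of all 9 libraries (log2 change -2.05 ± 1.35, SE; limma adjusted p = 0.203), which also held the METTL14-KO values of 972 and 0. With only NTC and METTL3-KO in the fit it was called (0.00029), as it was without either METTL14-KO library. It was not called after division by the step (log2 change -1.22, limma adjusted p = 0.563) or when libraries were centred (-0.27, 0.842). BAK1 was lower in METTL14-KO (0.00486) and WTAP-KO (0.000897).

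The 3 BAK1 peaks of KO libraries shared 1 edge. All 3 began 19 bp after the canonical start and ran to 682, 752 and 451 bp, while the NTC peaks ran from -282, -275 and -279 bp to 1489, 1505 and 1232 bp relative to it. The stretch below lies in intron 1 at chr6:33547602-33547801 (hg19, minus strand, 200 bases) and was inside a peak of all 6 libraries that had one. It is shown as a part of BAK1 that stayed inside every called peak. Each printed stretch is the run of at least 50 bases nearest the canonical start, with annotated untranslated regions left out. At BAK1 the interval inside every called peak was longer than the printed one. A transcript of the gene GGNBP1 also spans the BAK1 stretch, whose capitals mark 4 CG dinucleotides.
BAK1: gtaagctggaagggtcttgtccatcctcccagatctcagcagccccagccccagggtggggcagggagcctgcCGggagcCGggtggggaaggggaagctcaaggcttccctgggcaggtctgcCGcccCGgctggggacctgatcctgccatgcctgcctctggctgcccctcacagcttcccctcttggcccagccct
This stretch is poor in CG, with an observed to expected ratio of 0.168, against 0.812 in the BCL2L1 stretch above.

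Among the BH3-only genes, BCL2L11 and BID lost every peak within 1 kb. BCL2L11, which encodes BIM, had 1473, 1100 and 3218 in the NTC libraries and no peak within 5 kb in any KO library. BID, whose product is cut by caspase-8 and links death receptors to the mitochondrion, had 3593, 3154 and 4951 in NTC and none in the KO libraries. Both were called lower in all 3 groups, with limma adjusted p of 1.78e-05 to 2.08e-05 for BCL2L11 and 2.19e-07 to 2.26e-07 for BID. As every KO library was listed at 0, the 3 tests of a gene are the same comparison. The spread seen there is that of the NTC libraries alone. The largest NTC peaks of BID lay 381 to 1492 bp after the canonical start, and within 5 kb a further peak of 848 to 894 bp at the start of LINC00528 was stronger, at 4876, 5001 and 6536. That peak had a remnant of 328 in the second METTL3-KO library.

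BAD and PMAIP1 kept a reduced peak. BAD, whose product is held inactive by survival kinases, had 4832, 6833 and 7728 in NTC, 1538 and 986 in METTL3-KO, 1472 and 0 in METTL14-KO, and 0 in both WTAP-KO libraries. Its peak also covers a start of the neighbouring gene GPR137 on the other strand in every NTC and both METTL3-KO libraries, so the signal cannot be given to BAD alone. METTL3-KO held 19.5% of the NTC mean (40.8% after division by the step). The fall was called in WTAP-KO (limma adjusted p = 0.00287) and METTL14-KO (0.0224), and not in METTL3-KO (log2 change -2.34 ± 1.51, SE; 0.198), where it was called with only the groups compared in the fit (0.00469) and without either METTL14-KO library (0.00138 and 0.00162). The METTL14-KO call was lost with only the groups compared (0.0636), with the replicate number as a block (0.0715), and without NTC replicate 2 or 3 (0.0567 and 0.0599), and when signals were divided by the step (0.0966) or centred (0.23). In METTL3-KO the BAD change was not called after division by the step (log2 change -1.51, limma adjusted p = 0.515) or when centred (-0.56, 0.718).

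PMAIP1 had 9750, 8068 and 9055 in NTC, 1650 and 1447 in METTL3-KO, and none elsewhere. METTL3-KO held 17.3% of the NTC mean, or 34.4% after division by the step. The gene was lower in METTL3-KO (log2 change -2.51 ± 0.26, SE; limma adjusted p = 0.000137), METTL14-KO (2.97e-07) and WTAP-KO (2.97e-07). The METTL3-KO call was lost when libraries were centred on the genes marked in all 9 (log2 change -0.73, adjusted p = 0.2). In NTC the main PMAIP1 peak began 341 to 343 bp after the start, and a smaller peak of 648, 624 and 2479 reached the start itself. No KO library had the smaller peak, and the METTL3-KO peaks lay 381 to 1209 bp after the start.

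For BAD and PMAIP1 a stretch chosen in the same way is given for comparison. Each is only part of what stayed inside a peak of every library with one. That of BAD is at chr11:64052236-64052293 (hg19, minus strand, 58 bases), 99 bp before the canonical start and in no exon, and that of PMAIP1 is at chr18:57567636-57567883 (hg19, plus strand, 248 bases), in intron 1 of the canonical transcript, where 2 exons of other PMAIP1 transcripts are annotated. Capitals mark CG dinucleotides, 6 in BAD and 18 in PMAIP1.
BAD: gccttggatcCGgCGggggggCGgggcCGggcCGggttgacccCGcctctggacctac
PMAIP1: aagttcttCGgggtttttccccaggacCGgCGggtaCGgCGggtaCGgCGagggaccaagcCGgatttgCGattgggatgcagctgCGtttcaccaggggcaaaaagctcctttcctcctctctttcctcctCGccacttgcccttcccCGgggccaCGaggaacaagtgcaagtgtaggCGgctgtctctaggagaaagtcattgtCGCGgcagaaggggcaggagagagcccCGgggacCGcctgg

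BBC3 was uneven within NTC. It had 9437 in the first NTC library, none in the second and 353 in the third, and none in any KO library, so the NTC and KO groups overlapped. The first NTC library had 2 peaks downstream of the canonical start, 1 of them covering the start of the microRNA gene MIR3191, and neither was found in the other NTC libraries. The gene did not pass the test in any comparison with NTC (limma adjusted p = 0.061 for all KO groups and 0.132 to 0.136 by group), and without the second NTC library it was called for all KO groups (0.00568) and by group (0.0125 to 0.0144). As every KO library was listed at 0, the tests by group are the same comparison.

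The METTL3-KO libraries retained more than the others at some members. MCL1, BAK1 and PMAIP1 were higher in METTL3-KO than in METTL14-KO and WTAP-KO (limma adjusted p = 6.85e-05, 0.0218 and 2.93e-05), and no member was lower. Over all tested genes 29.5% were higher and 0.582% lower in this comparison. BAD (0.0887), BCL2 (0.198) and BCL2L1 (0.334) did not pass, and for BCL2L11, BAX, BID and BBC3 all 6 KO libraries were listed at 0, which leaves nothing to compare. With only peaks at or above the NTC median the MCL1 and PMAIP1 differences were lost, since all 6 KO libraries were then at 0. Calls were gained for BCL2 (3.59e-05) and, as lower in METTL3-KO, BCL2L1 (0.000224) without the second METTL3-KO library, where METTL3-KO is 1 library and the spread comes from the other groups, and for BAD without either METTL14-KO library (0.000181 and 0.00355) and with the 5 kb window (0.00217). The BAK1 call was lost when signals were divided by the step (0.0638), and without either METTL3-KO (0.111 and 0.0837) or WTAP-KO library (0.0545 and 0.0504). With libraries centred on the genes marked in all 9, the split over all genes turned from 70 lower and 3552 higher to 3740 lower and 2411 higher, and that over the members from 0 and 3 to 2 and 3.

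**Figure D4:**
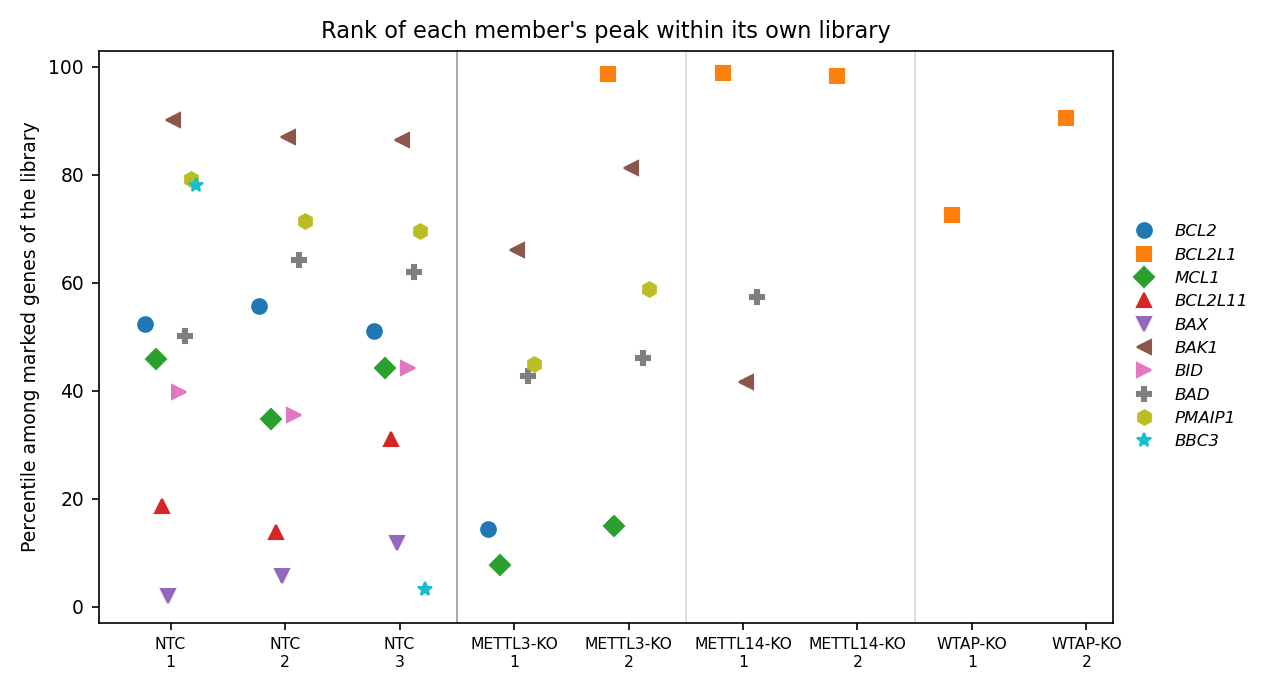
Rank of each member's largest peak among the marked genes of the same library, as a percentile (100 is the strongest); a member without a peak has no point. BCL2L1 lies between 72.6 and 98.9 in 5 KO libraries, while BAK1 lies between 86.5 and 90.1 in NTC. The WTAP-KO points of BCL2L1 are for the peak at the start of ABALON, not for one at the canonical start.

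Ranks within a library do not depend on the calibration between libraries, but they are taken over lists of different length (the numbers of marked genes above), so they are a description of each library. BCL2 stood at percentiles of 51.0 to 55.7 in NTC and 14.4 in the first METTL3-KO library, the only KO library in which it has a rank. MCL1 stood at 34.8 to 45.8 in NTC and 7.7 and 15.0 in METTL3-KO, where the ranked peak is a different one. BAK1 stood at 86.5 to 90.1 in NTC, 66.2 and 81.2 in METTL3-KO and 41.7 in the first METTL14-KO library. BAD overlapped, with 50.1 to 64.1 in NTC, 42.8 and 46.1 in METTL3-KO and 57.3 in the first METTL14-KO library. BCL2L1, at 98.7, 98.9 and 98.3 in the second METTL3-KO and the METTL14-KO libraries, stood above every value of any other member. These ranks were not tested.

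In NTC the members were ordered by signal per base of peak, which allows for peak length. The mean was 7.8 ± 1.2 (SD, n = 3) for BAK1, 6.27 ± 0.97 for PMAIP1, 4.77 ± 0.68 for BCL2, 4.29 ± 0.89 for BAD, 3.8 ± 0.64 for BID, 3.14 ± 0.27 for MCL1, 2.05 ± 0.8 for BCL2L11 and 1.58 ± 1.1 for BAX. Among these neighbours the ranges over libraries overlapped except between PMAIP1 and BCL2. BBC3 was 7.17 and 1.07 in the 2 libraries that had a peak. The BCL2L1 values of KO libraries, 5.55 in METTL3-KO, 6.23 and 4.93 in METTL14-KO and 2.76 and 6.03 in WTAP-KO, lay within the range of the NTC values of the others. The WTAP-KO values belong to a different peak, at the start of ABALON. The 168 bp peak of BAD in the first METTL14-KO library had 8.76, above the BAD values of NTC (3.48 to 5.24).

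Narrowing accompanied loss of signal. All 11 KO peaks at members marked in all NTC libraries lay wholly inside an NTC peak, as did 87.3% of 13405 such peaks at all genes. The mean NTC peak was 5.34 times as wide as the KO peak at BCL2, 3.35 times at BAD, 2.81 times at PMAIP1 and 2.77 times at BAK1. The median of 2.75 named above is over another set, genes with peaks in at least 4 KO libraries. None of these members had that many. At the MCL1 start, where the same peak can be compared, it was 2.79 times as wide as in METTL3-KO. Whether the higher number of fragments that a KO call needed sets part of this narrowing was not tested.

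The promoters of the members, taken as 270 bases before to 30 from the canonical start, varied in base composition. Their GC content ran from 55.7% at BAK1 to 80.7% at BBC3, with a median of 69.2% against 63% over 19862 promoters. The observed to expected CG ratio had a median of 0.917 against 0.765, and was lowest at BAK1 (0.224) and BCL2L1 (0.55). On either strand a GC box (GGGCGG) was found in 9 of 10 promoters, against 61.3% of all, and a CCAAT box (CCAAT) in 4, against 36.9%. A KLF site (CCNCNCCC, which overlaps the GC box in part) was found in 9 against 69.8%. A GATA site (AGATAA) was found in none of the 10 against 7.66% of all promoters, a TATA box (TATAAA) in none against 10.1%, and a CRE (TGACGTCA) in none against 2.76%. No match says only that these letters are not in this window. Promoters of genes marked in all NTC libraries had a median GC content of 66% and CG ratio of 0.847. Among them 75.3% held the GC box, 77.6% the KLF site and 36.8% the CCAAT box. The GATA site was in 4.97% of them, the TATA box in 5.3% and the CRE in 3.35%.

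Other genes of the pathway behaved much as all genes did, with exceptions by name. Of 10 further family genes, BCL2A1, BCL2L10, BOK, HRK, BCL2L14 and BCL2L15 had no peak in any library. The other 4 were tested, and all 4 were lower for all KO groups (BCL2L2, BIK, BMF and BCL2L13), with 3 lower in each group taken alone and none higher. For BCL2L2 and BCL2L13, chosen after their values were seen, the signals are given. BCL2L2, which encodes the survival protein BCL-W, had 5988, 5022 and 8349 in NTC and 368 and 467 in METTL3-KO, and was listed at 0 in the other KO libraries. BCL2L13 kept the most KO peaks of this list, at 2211 and 1703 in METTL3-KO and 1027 and 477 in METTL14-KO, against 7608 to 12832 in NTC.

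Of 15 genes that act beside or below the family, 14 were tested. For all KO groups the median change, which is no measure of size, was -5.38 against -5.30 over all genes. Of the 14, 9 were lower and 2 higher. Among those that were higher was HTRA2, listed at 0 in all 3 NTC libraries. HTRA2, a mitochondrial protease released when the outer membrane opens, had 4273 and 3564 in METTL3-KO, 2848 and 908 in METTL14-KO, and 862.5 and 266 in WTAP-KO, and was the only gene of this list with a peak in all 6 KO libraries (limma adjusted p = 4.39e-05). Each group taken alone gave 8 lower and 2 higher in METTL3-KO, 9 and 2 in METTL14-KO, and 9 and 1 in WTAP-KO. Like BCL2L1, HTRA2 has no NTC peak within 1 kb, and whether a wider NTC peak lies there was not tested.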

How the data were processed

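CUT&RUN libraries for H3K4me3 from HEL cells were grouped by the genotype in the labels. For each library the authors deposited the positions of its peaks and a signal for each peak, and per the submitters' processing notes used Bowtie, Picard, hg19 and the yeast build sacCer3. The signal is calibrated coverage and not a count, replicates were not pooled, and peaks were called by the authors from bed files of fragments without duplicates, by the published CUT&RUN protocol, with the threshold not given in the sources used here. The lowest 500 values of each library were whole multiples of its step (within 0.05 steps). Peak starts were read as counted from 0. Coordinates are hg19, and starts and exons come from GENCODE. Depth is unknown.

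The largest signal within 1 kb of any start was fitted in R 4.3.3 by limma 3.58.1 (eBayes, trended prior) on log2(signal + 30.1), all 9 libraries and 4 groups in 1 model, threshold 0.05, over 12037 protein-coding genes with a peak in at least 2 libraries. On simulated data a change of 5 was estimated at 5 and called in 66.3% of changed genes for all KO groups (12037 genes). Permutation tests used scipy 1.17.1, with Python 3.11.15, pandas 2.3.3, numpy 2.4.6 and matplotlib 3.10.9. Alternatives were the pseudocount, window, sum of peaks, filters, gene types, starts, scalings, peak threshold, groups in the fit, replicate block, trend and leaving out each library. Named were the members, list genes that stood apart, neighbours in pattern and genes starting inside member peaks. Single results for some list genes are not reported here. The members and lists were chosen with earlier results of these data known.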

Additional observations from a re-analysis of the deposited data

Results flagged for a closer look

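MCL1, BAK1 and PMAIP1 are listed because the METTL3-KO effect differed from that of METTL14-KO and WTAP-KO in a direct test. With 3 of 10 members higher beside 29.5% of all tested genes, this is no result about the family. The BAK1 call was lost under 6 of 23 alternatives. The difference on the log2 scale was 3.60 at MCL1, 5.44 at BAK1 and 5.71 at PMAIP1, and at each of them part of it is set by libraries listed at 0.

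BAD is listed for a signal outside the 1 kb window. A peak near its 3′ end, over exon 4 and a start of GPR137, was found in METTL3-KO (2766 and 1712) and METTL14-KO (1889 and 856), 1398 to 1697 bp from the nearest BAD start, and in no NTC or WTAP-KO library. This difference was not tested.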

How the results depend on the processing

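Over 46 changes of a member under up to 23 alternatives, 960 values kept their direction and their side of the threshold, 34 lost a call, 22 gained one and 2 reversed. The reversed ones were both BCL2L1: -0.30 in METTL3-KO with the 5 kb window, and 1.03 between METTL3-KO and the other KO groups without the first METTL3-KO library (-7.36 without the second). BCL2, MCL1, BCL2L11, BAK1, BID and PMAIP1 kept their calls against NTC in METTL14-KO, WTAP-KO and all KO groups under every alternative run.

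Genes called in WTAP-KO numbered 9206, falling to 6117 when peaks under the NTC median were dropped. Between METTL3-KO and the other KO groups 3622 genes were called, 2082 after division by the step, 6151 when centred, 1126 with only the stronger peaks, and 2389 to 4378 without 1 library, the lowest without the first METTL3-KO library. Of the members 3 were called there, 5 when centred, 1 with the stronger peaks, and 2 to 4 without 1 library. With those peaks 1 and 2 members were left in METTL3-KO, 1 in the first METTL14-KO and 0 in the first WTAP-KO library, and within 5 kb 2 in the second METTL14-KO library. Centring moved the median of all genes by 2.84 for all KO groups, and division by the step by 0.263.

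Same-numbered libraries did not deviate together (12 pairs, mean correlation 0.00586, range -0.0578 to 0.095). With the replicate block 10002 genes were called for all KO groups (10499 without it), and 9, 6, 8, 8 and 2 members in the 5 comparisons against 9, 6, 9, 9 and 3; the block lost BAD in METTL14-KO, BCL2L1 in WTAP-KO and BAK1 between the KO groups. The cause of these shifts was not tested. The number of libraries limits the precision, and depth is unknown.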

Other observations

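Inside BCL2, 109018 to 119978 bp from its canonical start, all 3 NTC libraries had intronic peaks and no KO library had one. The farthest of these had 1964, 1360 and 1754, and the nearest 1706, 1460 and 1567. Between them the first NTC library alone had a peak of 1999 bp with a signal of 8650, at a width 1 bp under the limit of the lists.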
